A study of Mus musculus with 14 samples.

Results

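Genes that differed between mouse CD4+ T cells cultured as induced regulatory T cells (iTreg) and as T helper 2 (Th2) cells were described for every gene that averaged 1 FPKM or more in either medium. FPKM is a read level scaled to transcript length and library size. By this rule 10867 of the 23773 genes in the deposited tables were members. Of these, 9978 reached that level in both media, 476 in iTreg alone and 413 in Th2 alone. The iTreg medium has 2 libraries and the Th2 medium has 2, out of 14 libraries from 7 media in the whole series.

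Both cultures began with naive C57BL/6 cells, sorted as CD4+ and CD62L high, CD44 low and CD25 negative, on plates coated with antibodies to CD3 and CD28 at 10 µg/ml each, and were collected on day 3. The iTreg medium held TGF-β at 20 ng/ml, IL-2 at 50 U/ml and an antibody to IFN-γ whose dose is not given. The Th2 medium held IL-4 at 20 ng/ml and the antibody to IFN-γ XMG1.2 at 10 µg/ml. No antibody to IL-2 or IL-4 is named for either. The media thus differed in TGF-β, in added IL-2 and in IL-4 together, and the parts of these in a difference cannot be told apart. The Th0 medium held no polarizing cytokine but blocking antibodies to IL-2, IL-4 and IFN-γ, and its levels are set beside some results. It shares its 2 libraries with both contrasts against it. The labels do not say that the libraries came from separate animals or cultures, so the p-values measure the spread between these libraries, which may be technical. RNA came from whole cultures with no sort on Foxp3 or IL-4 named, so a higher share of cells with a transcript and more transcript per cell cannot be told apart.

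TGF-β signals through a pair of receptor kinases to SMAD proteins, and in an activated naive T cell with IL-2 it induces Foxp3, the transcription factor that defines regulatory T cells. IL-4 signals through its receptor to STAT6, which raises Gata3, the transcription factor that defines Th2 cells and opens the Il4, Il5 and Il13 cytokine locus. TGF-β is known to restrain Gata3 and Th2 differentiation, and IL-4 is known to restrain the induction of Foxp3.

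Relative depth, read from the steps that single reads leave in low FPKM values, was 1.05 for Th2 replicate 1, 0.802 for iTreg replicate 2 and 0.821 for Th2 replicate 2 when iTreg replicate 1 is set to 1. Across members, log2 levels correlated at 0.982 between the iTreg libraries and 0.989 between the Th2 libraries, and at 0.880 to 0.908 between media; genes are not independent replicates. The iTreg libraries differed by a log2 unit or more in 129 members and the Th2 libraries in 58. CD4 T cell markers summed to 2972 and 2976 FPKM in iTreg and to 2165 and 2194 FPKM in Th2. B cell, mast cell and erythroid markers summed to between 0.0124 and 2.08 FPKM in each of the 4 libraries. Myeloid markers summed to 151 and 137 FPKM in iTreg against 34.5 and 39.2 FPKM in Th2, nearly all of it Ctss, a lysosomal protease that T cells also express. Of the other 9 myeloid markers Itgam, the integrin chain CD11b, was at 2.55 and 0.899 FPKM in iTreg against 0.0864 and 0.0895 FPKM in Th2 (adjusted p = 0.0009). Adgre1, the macrophage marker F4/80, was at 0.0918 and 0.146 FPKM in iTreg, 1.55 and 2.48 FPKM in Th2 (adjusted p = 1.1e-05) and listed at 0 in Th0. The defining Lyz2, Cd14, S100a8 and S100a9 were listed at 0 in all 4 libraries. A listed 0 can be a failed estimate, since Hmgcs1, a sterol enzyme of nearly every cell, was also listed at 0 in all 14 libraries. The part of myeloid cells in the results was not tested. The dendritic marker sum of 34.4 and 56.0 FPKM in Th2 was nearly all Batf3, with Siglech and Clec9a listed at 0. Of 11 stress gene members 1 was higher in iTreg, Jun, and 6 were lower, beside 28.1% higher and 37.2% lower over all members. The summed level of the stress list was 1425 and 1493 FPKM in iTreg and 1913 and 1791 FPKM in Th2. Its part in the results was not tested. Among NK markers Klrd1, which some activated T cells express, was at 4.05 and 11.0 FPKM in iTreg and 0.0368 and 0.0938 FPKM in Th2.

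Of the 10867 members, 7102 (65.4%) passed an adjusted p of 0.05, 3056 (28.1%) higher in iTreg and 4046 (37.2%) lower. A log2 change of 1 or more together with that p was reached by 768 members higher in iTreg (7.07%) and by 734 lower (6.75%), 13.8% together. A log2 change of 2 or more was reached by 218 higher and 115 lower members. Among called members 7101 changed in the same direction in both replicates; the exception was Fabp5, a fatty acid carrier, picked out here after its values were seen. The 2 media did not overlap in 8464 members (77.9%), beside 76.9% of all genes tested. The iTreg mean was the highest of all 7 media in 545 of the 768 larger rises, and the Th2 mean in 280 of the 734 larger falls. Over all 11557 genes tested the shares were 63.1% called, 27.1% higher and 36% lower, and 6.65% higher and 6.35% lower at a log2 change of 1 or more, 13% together. Against Th0, 63.5% of the genes tested were called in iTreg and 18% in Th2, and 11.9% and 3.18% with a log2 change of 1 or more. Changes are differences of log2(FPKM + 1), so for genes near 0 FPKM they are smaller than the log2 ratio of the levels.

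**Figure D1:**
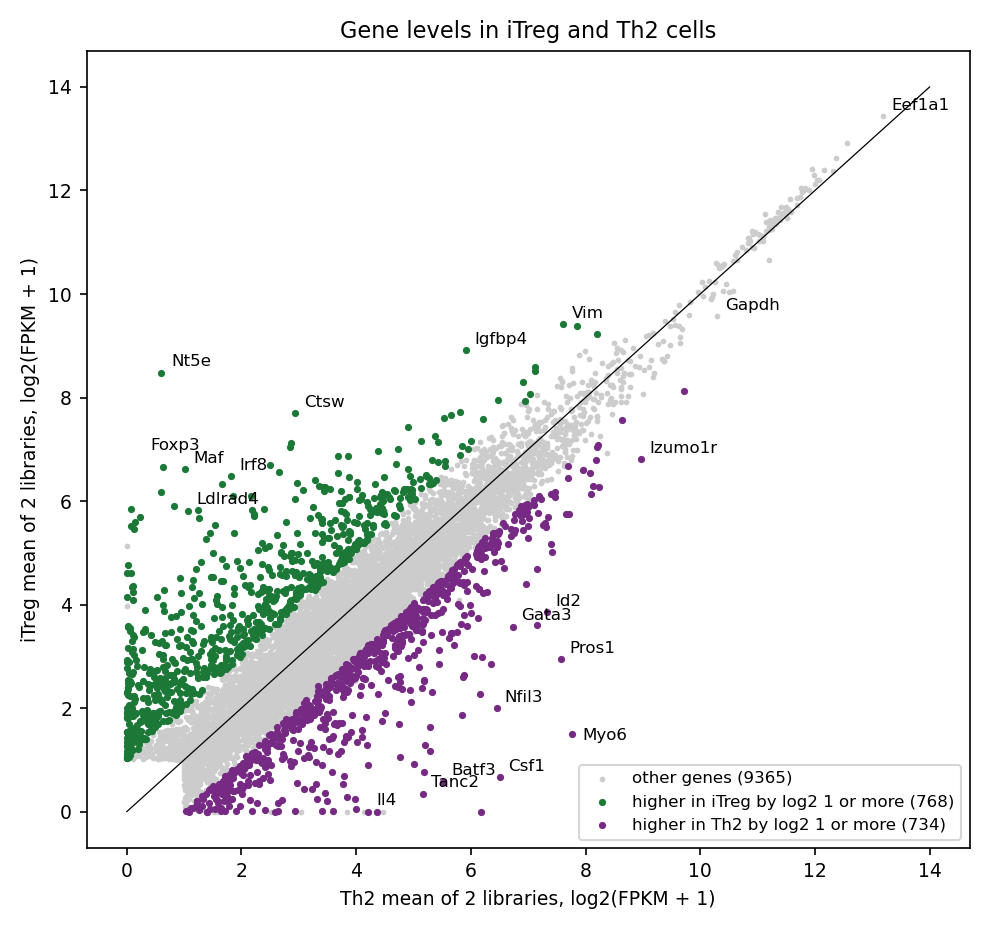
Mean level of each of the 10867 member genes in Th2 (x axis) and iTreg (y axis), both as log2(FPKM + 1) of 2 libraries; the line marks equal levels. Green and purple points are the 768 and 734 genes called at a log2 change of 1 or more, with Nt5e, Foxp3 and Maf in the upper left and Myo6, Csf1 and Nfil3 in the lower right.

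The transcription factors that define the cultures stood on opposite sides. Foxp3 was at 96.5 and 104 FPKM in iTreg, at 0.612 and 0.478 FPKM in Th2 and at 0.742 and 1.83 FPKM in Th0. The mean was 184-fold higher in iTreg than in Th2, a log2 change of 6.04 (SE 0.18, limma adjusted p = 2.2e-08). Gata3 was at 10.9 and 10.9 FPKM in iTreg, at 93.3 and 117 FPKM in Th2 and at 11.1 and 10.6 FPKM in Th0. It fell by 3.15 on the log2 scale (SE 0.12, adjusted p = 8.5e-08), and its mean was 9.63-fold higher in Th2. The iTreg and Th0 levels of Gata3 lay together, with a log2 difference of 0.01 (adjusted p = 0.96), whereas the Th2 level stood apart from both. Il4, the cytokine gene of the Th2 culture, was listed at 0 in both iTreg libraries and at 10.2 and 24.5 FPKM in Th2 (log2 change -4.08, SE 0.26, adjusted p = 1.5e-06). The other cytokines of that locus were near 0 in both media: Il5 reached at most 0.0232 FPKM in any of the 4 libraries, and Il13 was at 0 and 0.0318 FPKM in iTreg and 0.218 and 1.61 FPKM in Th2 (adjusted p = 0.095). The promoters of Foxp3, Gata3 and Il4, and of Nt5e, the gene with the largest rise, are shown because these genes carry the contrast. They are RefSeq sequences of build GRCm38.p6, while the authors used mm9, and each gives the 250 bases before an annotated start of the gene. Capitals mark letters that match a STAT6 type motif (TTCNNNNGAA), a STAT5 type motif (TTCNNNGAA) or a SMAD type motif (CAGACA), searched on both strands; no match shown overlaps another.
Foxp3, chrX:7580233-7580482, plus strand: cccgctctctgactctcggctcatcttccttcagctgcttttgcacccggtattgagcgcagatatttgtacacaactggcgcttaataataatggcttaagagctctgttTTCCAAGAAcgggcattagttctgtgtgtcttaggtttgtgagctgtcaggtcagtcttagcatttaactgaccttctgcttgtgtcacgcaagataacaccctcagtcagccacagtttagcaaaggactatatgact
Il4, chr11:53618666-53618915, minus strand: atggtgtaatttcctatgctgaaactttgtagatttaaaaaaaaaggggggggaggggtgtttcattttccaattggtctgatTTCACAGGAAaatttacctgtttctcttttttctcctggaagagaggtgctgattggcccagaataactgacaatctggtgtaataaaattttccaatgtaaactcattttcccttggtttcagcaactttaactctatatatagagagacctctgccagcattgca
Gata3, chr2:9878601-9878850, minus strand: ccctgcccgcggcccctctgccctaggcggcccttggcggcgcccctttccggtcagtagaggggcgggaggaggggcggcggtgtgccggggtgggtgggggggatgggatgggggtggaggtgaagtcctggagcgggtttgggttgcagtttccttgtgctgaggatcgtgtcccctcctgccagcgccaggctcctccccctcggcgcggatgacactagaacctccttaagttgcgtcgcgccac
Nt5e, chr9:88327359-88327608, plus strand: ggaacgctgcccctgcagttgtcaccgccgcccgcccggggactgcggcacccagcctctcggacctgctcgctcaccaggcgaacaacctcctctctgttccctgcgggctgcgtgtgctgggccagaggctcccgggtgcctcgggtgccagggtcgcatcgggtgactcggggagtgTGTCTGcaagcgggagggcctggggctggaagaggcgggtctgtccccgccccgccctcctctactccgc
The Foxp3 window holds a STAT5 type match that begins 139 bases before the start, the Il4 window a STAT6 type match at 167 bases and the Nt5e window a SMAD type match at 70 bases; the Gata3 window holds none of the 3 motifs. Another annotated start of Foxp3 and another of Il4 have no match in their windows. Among 32851 mouse promoters of this length, 7.02% hold the STAT5 type, 5.85% the STAT6 type and 17.1% the SMAD type motif. A match is a description of letters and not a bound site.

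Regulatory T cell genes did not move as a block. Of the 24 listed, 21 were members, of which 10 were higher in iTreg, 5 lower and 6 not called. Among the members 4 reached 1 FPKM in iTreg alone and 1 in Th2 alone, which fixed their direction. The median over all 24 was a log2 change of 0.21, beside 0 over all genes in the tables. Shares over all members were 28.1% higher in iTreg and 37.2% lower. Nt5e encodes CD73, which makes adenosine from AMP outside the cell. It was at 416 and 296 FPKM in iTreg, 0.616 and 0.411 FPKM in Th2 and 5.68 and 5.16 FPKM in Th0, the largest rise of any named gene (log2 change 7.87, SE 0.16, adjusted p = 5.7e-09). Both media departed from Th0 in opposite directions here, with log2 changes of 5.78 in iTreg (adjusted p = 3e-08) and -2.09 in Th2 (adjusted p = 2.9e-05). Ctla4, the inhibitory receptor that competes with CD28, was at 105 and 112 FPKM in iTreg and 37.5 and 53.9 FPKM in Th2 (log2 change 1.25, SE 0.14, adjusted p = 5.3e-05), but at 155 and 180 FPKM in Th0. Itgae, the CD103 integrin chain, was at 10.3 and 2.85 FPKM in iTreg against 0.0871 and 0.137 FPKM in Th2, so that the iTreg libraries differed widely from each other while both lay above Th2 (log2 change 2.57, SE 0.35, adjusted p = 0.00018). Dusp4, a phosphatase of MAP kinases, rose 6.31-fold by its mean and Capg, an actin capping protein, rose 2.89-fold.

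Some markers of regulatory T cells were lower in iTreg than in Th2. Tnfrsf18 encodes GITR, and it was at 57.7 and 81.7 FPKM in iTreg and 216 and 328 FPKM in Th2 (log2 change -1.94, SE 0.16, adjusted p = 1e-05). Tnfrsf4, which encodes OX40, was 3.61-fold higher in Th2 by its mean, and Izumo1r, which encodes folate receptor 4, was 4.51-fold higher there. Il2ra, the high affinity chain of the IL-2 receptor, was at 141 and 256 FPKM in iTreg and 198 and 294 FPKM in Th2. These libraries overlap, and the log2 difference of -0.34 (SE 0.33, adjusted p = 0.38) did not pass the test. Entpd1, which encodes CD39, the enzyme before CD73 in the breakdown of ATP, was at 3.09 and 5.74 FPKM in iTreg and 2.99 and 4.33 FPKM in Th2 (adjusted p = 0.36). Lrrc32, which tethers latent TGF-β to the surface, was at 5.00 and 16.4 FPKM in iTreg and 4.57 and 9.75 FPKM in Th2 (adjusted p = 0.46). Ikzf2, which encodes Helios, was near the level of the filter, at 1.09 and 0.983 FPKM in iTreg and 0.0472 and 0.107 FPKM in Th2 (adjusted p = 0.0051).

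**Figure D2:**
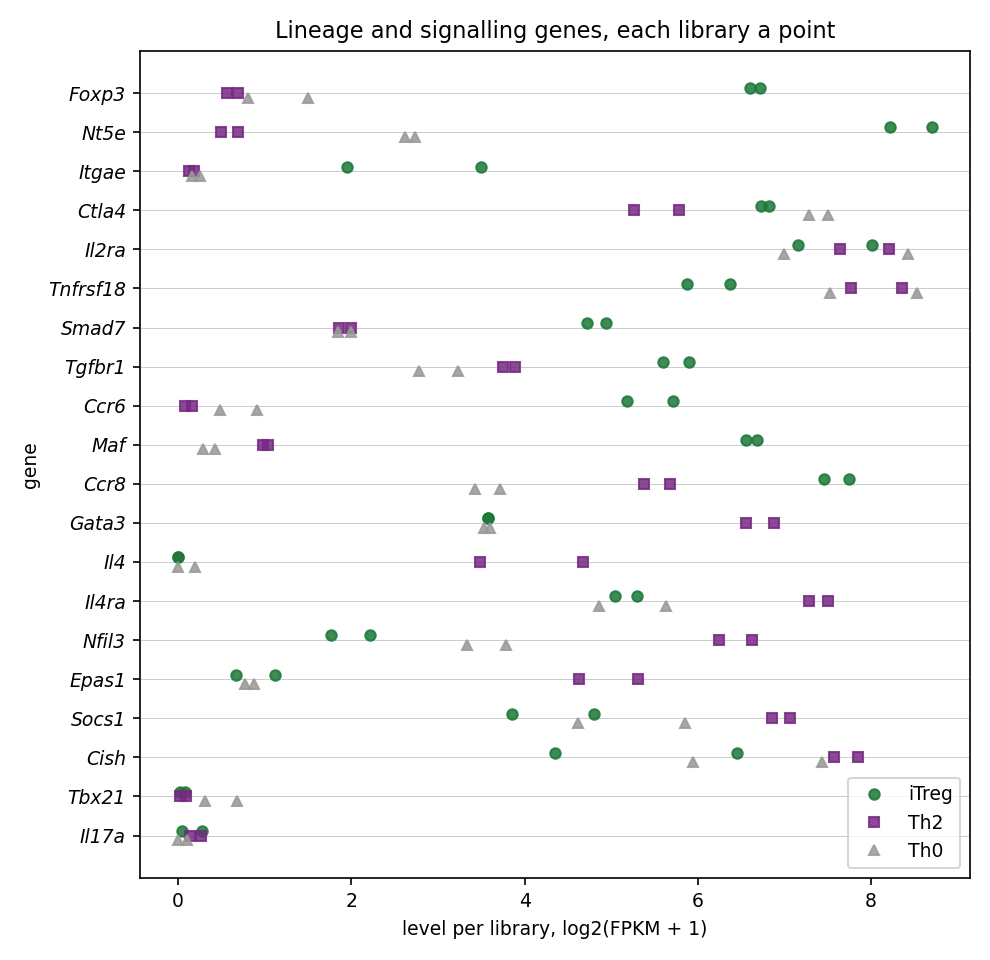
Level of 20 lineage and signalling genes in each library of iTreg, Th2 and Th0, on the log2(FPKM + 1) scale, with every point 1 library. Foxp3, Nt5e, Ccr6 and Maf lie far to the right in iTreg, Gata3, Il4, Nfil3 and Epas1 in Th2, and Tbx21 and Il17a lie near 0 in all 3 media.

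Th2 genes were mostly lower in iTreg, with 3 exceptions. Of 25 listed, 15 were members, and 10 of these were lower in iTreg, 3 higher and 2 not called. Among the members 4 reached 1 FPKM in Th2 alone, which fixed their direction. The median over all 25 was -0.60. Shares over all members were 37.2% lower in iTreg and 28.1% higher. Il4ra, the receptor chain that binds IL-4, was at 31.8 and 38.2 FPKM in iTreg, 155 and 180 FPKM in Th2 and 28.1 and 48.5 FPKM in Th0, which placed iTreg within the range of Th0 (iTreg against Th2 log2 change -2.22, SE 0.18, adjusted p = 7.6e-06). Nfil3, a transcription factor known to be induced by IL-4, was at 2.40 and 3.63 FPKM in iTreg and 75.1 and 97.5 FPKM in Th2 (log2 change -4.45, SE 0.13, adjusted p = 2.2e-08). Epas1, which encodes the hypoxia factor HIF-2α, was at 0.586 and 1.18 FPKM in iTreg and 23.6 and 38.5 FPKM in Th2 and did not exceed 0.772 FPKM as a mean in any of the 5 remaining media. Stat6 itself was at 49.2 and 53.6 FPKM in iTreg and 51.3 and 50.8 FPKM in Th2, with overlapping libraries and a log2 difference of 0.01 (SE 0.07, adjusted p = 0.94). The 3 exceptions were Maf, Ccr8 and Il6ra. Maf, a factor known to activate Il4 in Th2 cells and also used by other helper and regulatory cells, was at 101 and 93.2 FPKM in iTreg and only 0.964 and 1.06 FPKM in Th2 (log2 change 5.61, SE 0.11, adjusted p = 5.7e-09). Ccr8, a chemokine receptor of Th2 and regulatory cells, was at 213 and 174 FPKM in iTreg, 40.5 and 50.4 FPKM in Th2 and 9.79 and 12.1 FPKM in Th0. It was thus above Th0 in both media, by log2 4.03 in iTreg (adjusted p = 7.8e-07) and by 1.96 in Th2 (adjusted p = 0.00018). Il6ra, the IL-6 receptor chain, had a mean 3.01-fold higher in iTreg. Of 11 members of the IL-4 receptor pathway list 3 were lower in iTreg (Il4ra and the feedback inhibitors Socs1 and Socs3), 2 higher and 6 not called, with a median of -0.08 over the 13 listed.

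The receptor kinases of TGF-β and several of its intracellular inhibitors were higher in iTreg, whereas the coreceptor gene Tgfbr3 and the signalling SMAD gene Smad2 were lower. Of the 30 pathway genes listed, 23 were members, of which 14 were higher in iTreg, 5 lower and 4 not called. The median over all 30 was 0.28. Of the 23, 2 reached 1 FPKM in iTreg alone and 1 in Th2 alone, which fixed their direction. Over all members 28.1% were higher in iTreg and 37.2% lower. Tgfbr1, the signalling receptor kinase, was at 58.6 and 47.4 FPKM in iTreg and 12.5 and 13.8 FPKM in Th2 (log2 change 1.93, SE 0.21, adjusted p = 4.2e-05). Tgfbr2, the ligand-binding kinase, was at 69.9 and 54.4 FPKM in iTreg and 17.5 and 16.9 FPKM in Th2 (log2 change 1.79, SE 0.10, adjusted p = 8e-07). Tgfbr3 was at 5.63 and 5.05 FPKM in iTreg and 6.08 and 7.36 FPKM in Th2 (log2 change -0.28, SE 0.11, adjusted p = 0.048), a call that was lost when any library other than Th2 replicate 1 was left out (adjusted p from 0.0622 to 0.365) and in 6 other alternatives. Smad7, the inhibitory SMAD, was at 29.7 and 25.5 FPKM in iTreg and 2.61 and 2.97 FPKM in Th2 (log2 change 2.91, SE 0.10, adjusted p = 3.5e-08), and its Th2 and Th0 levels lay together. Skil and Ski, corepressors that bind SMADs, had means 5.12-fold and 3.45-fold higher in iTreg. Ldlrad4, a membrane protein that restrains SMAD phosphorylation, was at 62.6 and 47.9 FPKM in iTreg against 0.973 and 1.24 FPKM in Th2. Smad2 was at 5.19 and 4.70 FPKM in iTreg and 7.41 and 7.94 FPKM in Th2 (log2 change -0.55, SE 0.07, adjusted p = 0.0001). Tgfbr3 and Smad2 were picked out after their values were seen. The other receptor-activated SMAD gene of the list, Smad3, was at 5.79 and 9.27 FPKM in iTreg and 8.22 and 10.1 FPKM in Th2, and did not pass the test (log2 difference -0.28, SE 0.14, adjusted p = 0.11). Id2, an inhibitor of helix-loop-helix factors that TGF-β represses in several cell types, was at 9.16 and 17.8 FPKM in iTreg and 145 and 175 FPKM in Th2 (log2 change -3.54, SE 0.21, adjusted p = 1e-06). In Th0 it was at 38.8 and 36.0 FPKM, with log2 changes from Th0 of -1.475 in iTreg (limma adjusted p = 0.00024) and 2.06 in Th2 (adjusted p = 0.00016). Among other media with TGF-β, its mean was 164 FPKM in Th17_b and 34.2 FPKM with IL-27 plus TGF-β.

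Genes of the IL-2 and STAT5 list were mostly lower in iTreg. The list holds targets of STAT5, which carries the IL-2 signal, and also Il2, IL-2 receptor chains, Stat5a and Stat5b. The iTreg medium held added IL-2, and its part in these levels was not tested. Of 21 listed genes 20 were members, 12 lower, 3 higher and 5 not called, with a median of -0.87 over the 21. Among the 12 lower, Il2 and Gzmb reached 1 FPKM in Th2 alone, which fixed their direction. Over all members 37.2% were lower in iTreg and 28.1% higher. Cish, a feedback inhibitor, was at 19.4 and 86.8 FPKM in iTreg and 189 and 229 FPKM in Th2 (log2 change -2.30, SE 0.39, adjusted p = 0.00066). The iTreg libraries thus lay far apart from each other, both under Th2. Pim1, a survival kinase, had a mean 5.74-fold higher in Th2, and Socs1, an inhibitor of cytokine receptors that also belongs to the IL-4 list, a mean 6.11-fold higher. Bcl2, the survival gene, was at 9.91 and 16.7 FPKM in iTreg and 33.6 and 50.5 FPKM in Th2 (log2 change -1.60, SE 0.19, adjusted p = 7e-05). Socs2 ranged from 18.0 to 81.2 FPKM within iTreg alone and did not pass the test (adjusted p = 0.68). The 3 higher members were Stat5a, Stat5b and Il2rb. Stat5b was at 86.1 and 79.9 FPKM in iTreg and 40.3 and 50.2 FPKM in Th2 (log2 change 0.87, SE 0.11, adjusted p = 0.00012). Il2rb, at 250 and 229 FPKM in iTreg and 125 and 184 FPKM in Th2, had an adjusted p of 0.0079, which rose to 0.077 without iTreg replicate 1 and to 0.087 without Th2 replicate 1. Il2 itself was nearly at 0 in iTreg, at 0.0346 and 0 FPKM, and at 6.04 and 2.56 FPKM in Th2.

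Genes of other helper lineages were found in both directions. Of 19 Th17 genes 9 were members, 7 higher in iTreg and 2 lower, with a median of 0.32 over the 19. However, 6 of the 9 members reached 1 FPKM in iTreg alone, which fixed their direction. Over all members 28.1% were higher in iTreg. Il17a was near 0, at 0.211 and 0.0330 FPKM in iTreg and 0.201 and 0.0961 FPKM in Th2 (adjusted p = 0.9), and Il17f was at 7.24 and 4.23 FPKM in iTreg against 0.501 and 0.159 FPKM in Th2. The Th17_b medium reached means of 367 FPKM for Il17a and 835 FPKM for Il17f. Ccr6, the receptor for the chemokine CCL20, was at 51.3 and 35.3 FPKM in iTreg and 0.119 and 0.0547 FPKM in Th2, and its ligand gene Ccl20 was at 6.00 and 16.1 FPKM in iTreg and 0.0410 and 0 FPKM in Th2. The members lower in iTreg were the cofactors Batf and Irf4. Irf4 was at 131 and 138 FPKM in iTreg, 276 and 321 FPKM in Th2 and 84.6 and 98.6 FPKM in Th0, so that both polarized media lay above Th0.

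Follicular helper genes were higher in iTreg in 6 of 9 members and lower in 1, of 13 listed (median 0.63). Among these members 1 reached 1 FPKM in iTreg alone, and 28.1% of all members were higher in iTreg. Bcl6, the factor of that lineage, was at 29.8 and 12.8 FPKM in iTreg and 1.39 and 1.06 FPKM in Th2 (log2 change 3.22, SE 0.28, adjusted p = 1.2e-05). Pdcd1, which encodes the inhibitory receptor PD-1, was at 117 and 116 FPKM in iTreg and 11.5 and 12.3 FPKM in Th2 (log2 change 3.19, SE 0.08, adjusted p = 1.4e-08). Of 17 Th1 genes 10 were members, 5 higher in iTreg and 3 lower, with a median of 0.04. Among these members 4 reached 1 FPKM in iTreg alone and 1 in Th2 alone, which fixed their direction. The Th1 factor gene Tbx21 stayed at or under 0.0619 FPKM in all 4 libraries and Ifng at or under 0.191 FPKM. The genes of the IL-18 receptor chains, Il18r1 and Il18rap, were well above that in iTreg. Il18r1 was at 55.1 and 39.4 FPKM in iTreg, 0.112 and 0.108 FPKM in Th2 and 10.3 and 14.6 FPKM in Th0. It was above Th0 in iTreg by log2 1.84 (adjusted p = 6.2e-05) and under it in Th2 by -3.58 (adjusted p = 4e-06).

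**Figure D3:**
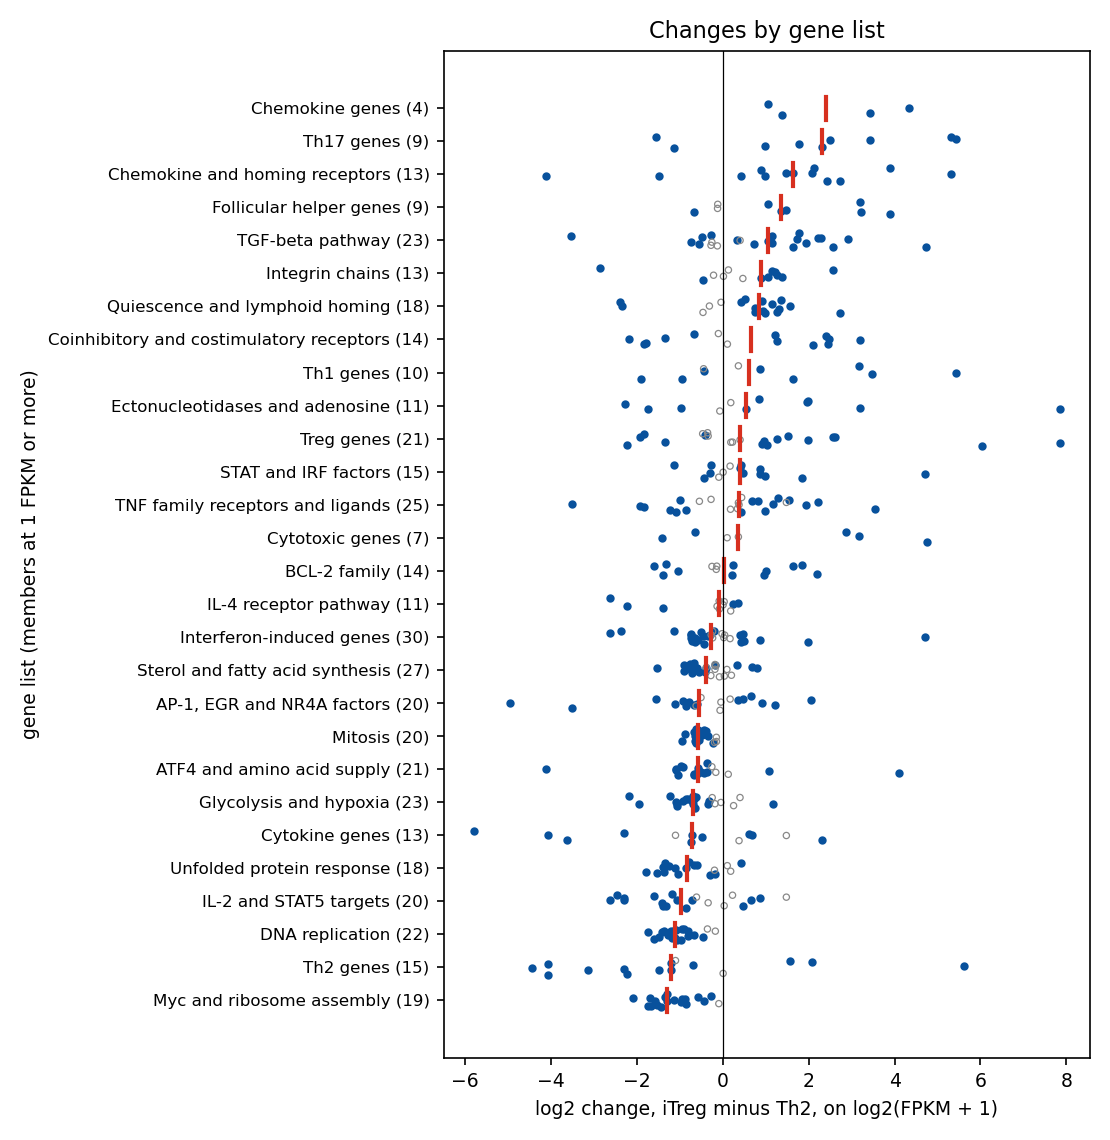
Log2 change from Th2 to iTreg of each member of 28 gene lists (points; filled where the adjusted p was under 0.05), ordered by the median over members, which is the red bar; brackets give the number of members. Myc and ribosome assembly and DNA replication genes lie to the left of 0 in every member, whereas the Treg, TNF family and BCL-2 lists spread to both sides.

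Of 27 cytokine genes listed 13 were members, 7 lower in iTreg and 3 higher, with a median of -0.03 over the 27. Of these 13, 7 reached 1 FPKM in both media, 1 in iTreg alone and 5 in Th2 alone. For those in 1 medium alone the filter fixed the direction. Shares over all members were 37.2% lower in iTreg and 28.1% higher. Csf1, the macrophage growth factor, was at 0.626 and 0.559 FPKM in iTreg, 109 and 71.1 FPKM in Th2 and 1.41 and 1.06 FPKM in Th0 (iTreg against Th2 log2 change -5.81, SE 0.28, adjusted p = 3.2e-07). Lif, a cytokine of the IL-6 family, was at 2.02 and 2.20 FPKM in iTreg and 29.8 and 46.5 FPKM in Th2. Of 13 chemokine genes listed 4 were members, and the median over the 13 was 0. The 4 were higher in iTreg, but 3 of them, Xcl1, Ccl20 and Ccl3, were members only through their iTreg level, which fixed their direction. Xcl1, which attracts cross-presenting dendritic cells, was at 37.2 and 9.55 FPKM in iTreg and listed at 0 in both Th2 libraries, and Ccl3 and Ccl4 reached at most 1.80 and 9.50 FPKM in iTreg.

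Receptors that guide migration were higher in iTreg in 11 of 13 members of 20 listed, and lower in 2, with a median of 0.66 over the list. However, 5 of the 13 members reached 1 FPKM in iTreg alone, which fixed their direction. Over all members 28.1% were higher in iTreg. S1pr1, which draws cells out of lymphoid tissue, was at 44.2 and 35 FPKM in iTreg and 4.52 and 5.77 FPKM in Th2 (log2 change 2.72, SE 0.14, adjusted p = 4.1e-07). Cxcr5, the receptor that leads into follicles, was at 22.3 and 9.98 FPKM in iTreg and 0.1 and 0.0512 FPKM in Th2. The receptors higher in Th2 were Ccr4 and Gpr183, an oxysterol receptor that positions cells at follicle edges, which was at 1.10 and 1.38 FPKM in iTreg and 41.9 and 34.3 FPKM in Th2 (log2 change -4.12, SE 0.16, adjusted p = 1.2e-07). Of 13 integrin members 7 were higher in iTreg and 2 lower, and 2 reached 1 FPKM in iTreg alone and 1 in Th2 alone. Itgb3, the β3 chain, was 8.93-fold higher in Th2 by its mean and Itgb2, the β2 chain of leukocytes, 2.63-fold higher in iTreg. The median over the 17 integrin genes listed was 0.23.

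Coinhibitory and costimulatory receptors were split, with 7 of 14 members higher in iTreg and 5 lower (median 0.11 over the 17 listed). Of these 14, 2 reached 1 FPKM in iTreg alone and 1 in Th2 alone, which fixed their direction. Over all members 28.1% were higher in iTreg and 37.2% lower. Beside Pdcd1 and Ctla4, Vsir, which encodes the checkpoint protein VISTA, was at 60.1 and 40.2 FPKM in iTreg and 7.01 and 9.24 FPKM in Th2 (log2 change 2.47, SE 0.17, adjusted p = 2.5e-06). Btla, an inhibitory receptor, was at 18.3 and 19.2 FPKM in iTreg, 67.7 and 72.1 FPKM in Th2 and 78.1 and 70.6 FPKM in Th0, so that Th2 and Th0 lay together. TNF family genes were also split, with 10 of 25 members higher and 7 lower (median 0.36 over the 27 listed). Of these 25, 1 reached 1 FPKM in iTreg alone and 1 in Th2 alone, which fixed their direction. Tnfrsf1b, which encodes TNF receptor 2, was at 75.8 and 58.1 FPKM in iTreg and 12.2 and 15 FPKM in Th2. Tnfsf8, the CD30 ligand gene, was at 4.64 and 7.85 FPKM in iTreg and 77.2 and 83.5 FPKM in Th2 (log2 change -3.52, SE 0.20, adjusted p = 8.3e-07).

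**Figure D4:**
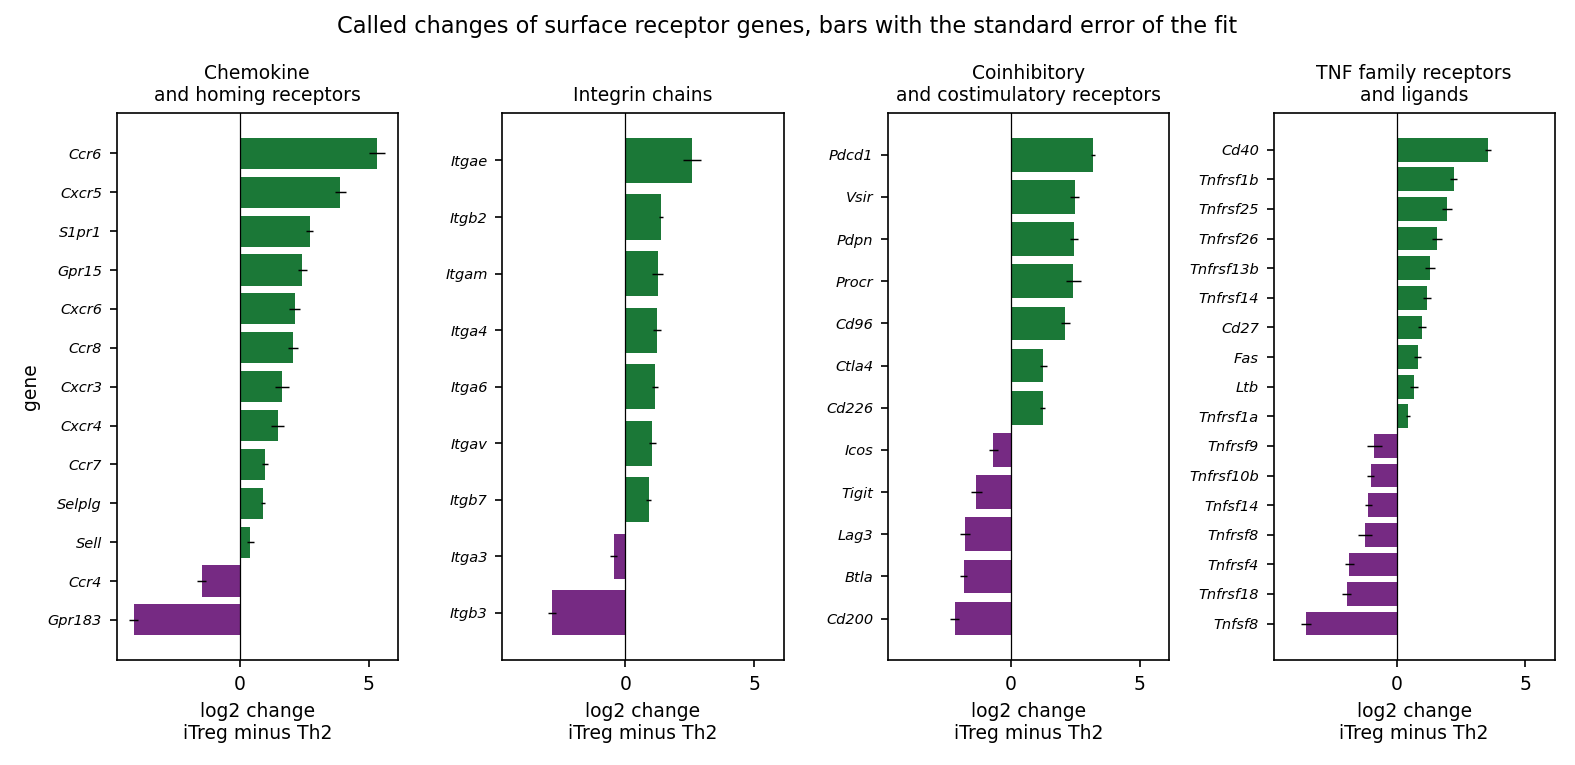
Log2 change from Th2 to iTreg of the called members of 4 lists of surface molecules, with the standard error of the fit. Bars to the right (green) are higher in iTreg and bars to the left (purple) in Th2. Homing receptors point mostly to the right, with Gpr183 the longest bar to the left at -4.12. The filter fixed the direction of list members that reached 1 FPKM in 1 medium alone. In iTreg alone these were 5 homing receptors, 2 integrin chains, 2 coinhibitory or costimulatory receptors and 1 TNF family gene. In Th2 alone they were 1 integrin chain, 1 coinhibitory or costimulatory receptor and 1 TNF family gene.

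Adenosine handling beyond Nt5e was represented by 10 genes, all members, of which 5 were higher in iTreg and 3 lower (median 0.36). Of these 10, 1 reached 1 FPKM in Th2 alone, which fixed its direction. Shares over all members were 28.1% higher in iTreg and 37.2% lower. Slc29a1, an adenosine transporter, was at 251 and 150 FPKM in iTreg and 51.7 and 46.5 FPKM in Th2. Adk, the kinase that turns adenosine back into AMP within the cell, was at 10.3 and 9.79 FPKM in iTreg, 58.9 and 46.7 FPKM in Th2 and 26.4 and 22.9 FPKM in Th0 (iTreg against Th2 log2 change -2.28, SE 0.11, adjusted p = 3e-07). Th0 lay between the 2 media. Cd38, which consumes NAD outside the cell, had a mean 15.9-fold higher in iTreg, and Adora2b, a low affinity adenosine receptor, a mean 5.27-fold higher in Th2.

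Among transcription factors of the STAT and IRF families 8 of 15 were higher in iTreg and 4 lower (median 0.40). Of these 15, 1 reached 1 FPKM in iTreg alone, which fixed its direction. Over all members 28.1% were higher and 37.2% lower. The count of lower genes rested on single libraries: it was 1 without iTreg replicate 1, 1 without Th2 replicate 1 and 1 without Th2 replicate 2. Irf8, a factor best known from myeloid and B cells, was at 76.1 and 100 FPKM in iTreg and 1.64 and 3.37 FPKM in Th2 (log2 change 4.70, SE 0.25, adjusted p = 5.5e-07). Of 20 AP-1, EGR and NR4A members 6 were higher and 9 lower (median -0.51 over the 21 listed), beside 28.1% and 37.2% of all members. Of these 20, 3 reached 1 FPKM in Th2 alone, Batf3 and Atf3 among them, which fixed their direction. Batf3, a BATF family factor, was at 0.101 and 0.883 FPKM in iTreg and 34.1 and 55.5 FPKM in Th2 (log2 change -4.95, SE 0.56, adjusted p = 5.9e-05), with Th0 libraries far apart at 0.802 and 12.0 FPKM. Jun had a mean 5.80-fold higher in iTreg and Atf3 a mean 63.9-fold higher in Th2. Interferon-induced genes were members in 30 of 43 listed, 7 higher and 16 lower, beside 37.2% lower over all members. Of these 30, 1 reached 1 FPKM in iTreg alone and 4 in Th2 alone, which fixed their direction. The median of the interferon-induced genes was -0.05 over the list, which includes genes under the filter, and -0.29 over its members. A log2 change of 1 or more was reached by 2 of the higher and 3 of the lower genes.

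Genes of DNA replication, mitosis and ribosome assembly were lower in iTreg with hardly an exception. All 22 DNA replication genes were members; 20 were lower in iTreg, none higher and 2 not called, beside 37.2% lower over all members, and their median was -1.10. Mcm3, a subunit of the replicative helicase, was at 35.4 and 55.9 FPKM in iTreg, 163 and 141 FPKM in Th2 and 151 and 134 FPKM in Th0 (iTreg against Th2 log2 change -1.74, SE 0.18, adjusted p = 3e-05). Of 20 mitosis genes 17 were lower in iTreg and none higher, with smaller changes (median -0.57); Aurkb, a mitotic kinase, was at 35.6 and 51.2 FPKM in iTreg and 84.3 and 82.9 FPKM in Th2. Of 20 genes of Myc and ribosome assembly 19 were members, 18 lower and none higher (median -1.21). Srm, the spermidine synthase that Myc activates, was at 6.84 and 13.3 FPKM in iTreg and 47.5 and 40.7 FPKM in Th2 (log2 change -2.09, SE 0.26, adjusted p = 0.0001). For Mcm3, Aurkb and Srm the Th2 and Th0 libraries lay close, with log2 differences of 0.09, 0.01 and -0.33 and adjusted p values of 0.78, 0.98 and 0.43.

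Metabolic and protein folding genes were mostly lower in iTreg as well. The counts below stand beside 37.2% lower and 28.1% higher over all members. Of 23 glycolysis and hypoxia genes 17 were lower and 1 higher (median -0.69), and their summed level was 2848 and 4034 FPKM in iTreg against 5028 and 5494 FPKM in Th2. Hk2, the inducible hexokinase, was at 0.984 and 2.38 FPKM in iTreg and 8.96 and 13.0 FPKM in Th2 (log2 change -2.19, SE 0.20, adjusted p = 1.6e-05). Gapdh, often used as a reference gene, was at 676 and 853 FPKM in iTreg and 1302 and 1201 FPKM in Th2 (adjusted p = 0.0019). Of 18 genes of the unfolded protein response 14 were lower and 1 higher (median -0.83); Hspa5, the main chaperone of the endoplasmic reticulum, was at 85.8 and 99.4 FPKM in iTreg and 291 and 250 FPKM in Th2. Of 21 members of the ATF4 list, genes of amino acid supply, 16 were lower and 2 higher (median -0.57 over the 22 listed). Of these 21, 1 reached 1 FPKM in Th2 alone, which fixed its direction. The 2 higher were Ddit4, an inhibitor of mTORC1, and Nupr1, a stress-induced nuclear protein at 36.2 and 54.2 FPKM in iTreg and 0.639 and 3.18 FPKM in Th2. Of 27 sterol and fatty acid members 15 were lower and 3 higher (median -0.39 over these 27; Hmgcs1, listed at 0 throughout, was left out). The count of lower genes fell to 9 without iTreg replicate 1 and to 8 without Th2 replicate 1, beside 28.8% and 28.5% of all members.

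These differences were larger in replicate 1 than in replicate 2. The median change of the DNA replication genes was -1.52 in replicate 1 and -0.70 in replicate 2, and that of Myc and ribosome assembly was -1.67 and -0.73. In all 22 replication genes and all 27 sterol genes iTreg replicate 1 lay under iTreg replicate 2. Over all members the median change was -0.13 in replicate 1 and -0.02 in replicate 2. The TGF-β pathway genes, most of whose members were higher in iTreg, had medians over members of 1.06 and 0.86, which was also the larger change in replicate 1. Without iTreg replicate 1 the lower counts were 19 of 22 replication genes, 15 of 20 mitosis genes and 18 of 19 genes of Myc and ribosome assembly. The Th2 libraries differed as well. Replicate 1 and 2 of Th2 summed to 1880 and 1605 FPKM for DNA replication and 2257 and 2012 FPKM for Myc and ribosome assembly. For the unfolded protein response the sums were 1743 and 1535 FPKM. Glycolysis (5028 and 5494), ATF4 (1256 and 1391) and sterol genes (2101 and 2251 FPKM) went the other way. The part of differences between libraries of either medium in these lists was not tested.

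**Figure D5:**
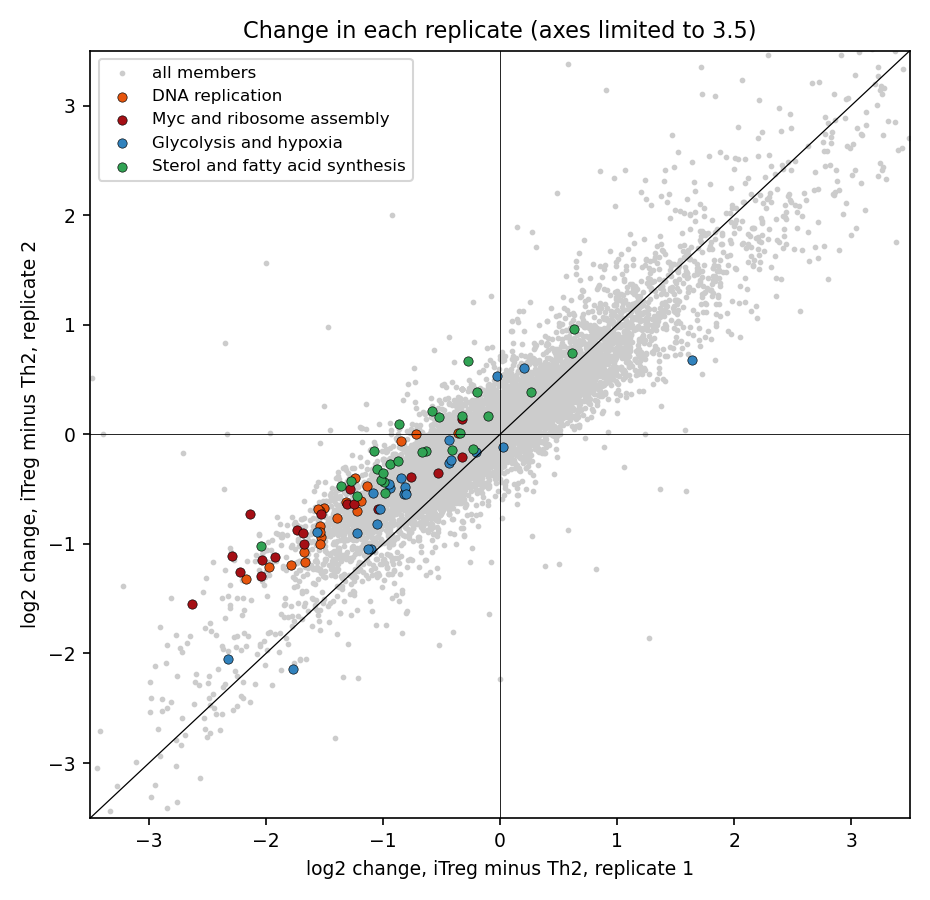
Log2 change from Th2 to iTreg in replicate 1 (x axis) and replicate 2 (y axis) for all members (grey) and 4 lists (coloured); the diagonal marks equal changes and both axes end at 3.5. Coloured points lie above the diagonal in the lower left, which means larger falls in replicate 1, and across all members the changes correlated at 0.881.

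Genes of resting lymphocytes were mostly higher in iTreg, and genes of cell survival and death were split. Of 18 quiescence and lymphoid homing genes, all members, 13 were higher in iTreg, 2 lower and 3 not called (median 0.83). Over all members of the contrast 28.1% were higher in iTreg and 37.2% lower. Tcf7, a factor of naive and memory T cells, was at 447 and 280 FPKM in iTreg and 139 and 136 FPKM in Th2 (log2 change 1.36, SE 0.17, adjusted p = 0.00012). Btg1 and Btg2, antiproliferative genes, had means 2.23-fold and 2.96-fold higher. The lower members were Satb1, a chromatin organizer, at 32.7 and 29.8 FPKM in iTreg and 163 and 175 FPKM in Th2, and Dapl1. Among 14 BCL-2 family genes 7 were higher and 4 lower, beside the same 28.1% and 37.2%. Both directions held genes that promote cell death and genes of survival, and the median was 0.04. The higher genes were Bmf, Bbc3, Pmaip1 and Bad, which promote cell death, the first 3 with means 5.79-fold, 2.12-fold and 3.62-fold higher in iTreg, and the survival genes Mcl1, Bcl2a1a and Bcl2a1b. Bcl2a1a was the largest rise of the list, at 26.8 and 22.3 FPKM in iTreg and 4.97 and 4.13 FPKM in Th2 (log2 change 2.20, SE 0.17, adjusted p = 5.4e-06), though it is near-identical to Bcl2a1b and their separate levels are uncertain. Mcl1 was at 87.7 and 101 FPKM in iTreg and 78.8 and 82.8 FPKM in Th2 (adjusted p = 0.02), which rose to 0.103 without iTreg replicate 2, to 0.0968 without Th2 replicate 2 and to 0.0813 with no replicate block. The lower genes were the survival genes Bcl2 and Bcl2l1 and the death genes Bax and Bid, of which Bid was at 1.79 and 2.28 FPKM in iTreg and 7.07 and 6.87 FPKM in Th2 (log2 change -1.40, SE 0.12, adjusted p = 1.2e-05). Mcl1, Bcl2a1b, Bad and Bax were named after their values were seen.

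Several of the largest changes fell outside these lists. Myo6, an unconventional myosin that moves toward the minus end of actin, was at 1.44 and 2.22 FPKM in iTreg, 180 and 251 FPKM in Th2 and 0.779 and 1.09 FPKM in Th0, the largest fall (log2 change -6.25, SE 0.13, adjusted p = 5.7e-09). Pros1, which encodes the TAM receptor ligand protein S, was at 6.76 and 6.63 FPKM in iTreg and 191 and 187 FPKM in Th2, and Tanc2, a scaffold protein, was at 0.214 and 0.329 FPKM against 37.6 and 31.8 FPKM. These 3 genes were low in all the other media too, with no mean above 6.72 FPKM for Pros1. On the iTreg side, Emp1, a membrane protein, was at 73.9 and 69.5 FPKM against 0.375 and 0.662 FPKM in Th2, and Adam19, a metalloprotease, at 45.4 and 44.9 FPKM against 0.0938 and 0.0199 FPKM. Both also stood high in Th17_b, the Th17 medium with TGF-β and IL-6, at mean levels of 67.4 FPKM for Emp1 and 63.3 FPKM for Adam19. Ctsw, a cathepsin of cytotoxic cells, was at 201 and 212 FPKM in iTreg and 7.59 and 5.78 FPKM in Th2. Apol9a and Apol9b, and Ctla2a and Ctla2b, were also among the 20 largest rises; these are near-identical gene pairs whose reads the authors' counting could split, so their separate levels are uncertain. In absolute FPKM the largest gains included Eef1a1, a translation factor, Capg, Igfbp4, Lgals1, Vim and Myh9, after 23 genes were passed over in this ranking by the naming rule. Eef1a1 was at 10761 and 11317 FPKM in iTreg and 8760 and 9948 FPKM in Th2. Igfbp4, which binds insulin-like growth factors, was at 401 and 561 FPKM in iTreg and 54.8 and 64.2 FPKM in Th2 (log2 change 2.98, SE 0.13, adjusted p = 1.9e-07). The largest losses included Mif, a cytokine stored in cells, at 185 and 369 FPKM in iTreg and 915 and 776 FPKM in Th2 (log2 change -1.69, SE 0.25, adjusted p = 0.00033).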

How the data were processed

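Transcript levels came from RNA sequencing of mouse CD4+ T cells. The libraries were prepared from total RNA with a TruSeq kit, per the labels' protocols. The submitters' processing notes name TopHat2 2.0.3, Cufflinks 1.3.0 and build mm9 without saying what each did. FPKM values were deposited by the authors in 2 tables, 1 per replicate number; their scaling, and strand, are not given in the sources used here. Read totals are unknown, so no counting interval is given. Relative depth came from whole-read steps: of the transcripts compared, at 0.15 FPKM or less, 65.8% to 72.2% had a ratio no more than 1% from a ratio of whole reads (6 or fewer).

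The 30028 transcripts were named by RefSeq accession (96.2%), GENCODE accession (173) or table symbol (232), and 748 stood for themselves; FPKM were summed per gene. The 11557 genes whose mean reached 1 FPKM in any of 7 media were tested on log2(FPKM + 1). The test was limma's (version 3.58.1, R 4.3.3; lmFit, contrasts.fit, eBayes with trend) over all 14 libraries, with the table as a covariate, which left 6 residual and 3.34 prior degrees of freedom. P-values are two-sided, Benjamini-Hochberg adjusted over the genes tested, and called under 0.05. Fold values are ratios of mean FPKM. The procedure was checked on simulated data.

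Genes are named by rule: the 20 largest rises and falls and the 10 largest FPKM differences each way, passing over 27 genes (clones, small RNAs, ribosomal proteins); in every list up to 6 genes by p; and 36 lineage genes. The text gives part of them; some that the rule takes are not reported here. The members and lists were chosen with earlier results of these data known. Alternatives were no replicate block, a pseudocount of 0.1, a filter at 5 FPKM or none, quantile normalization, median scaling, no trend, iTreg and Th2 alone, a gene's highest transcript instead of its sum, and dropping each library in turn. Promoters were matched by symbol for 8669 of the 10867 members, under the 80% needed to compare sets, so motif shares were not compared between gene sets. Near-identical and overlapping genes are uncertain.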

Additional observations from a re-analysis of the deposited data

How the results depend on the processing

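Over the 118 named genes that entered the fit, 1494 of 1530 values under the alternatives kept their direction and their side of the threshold. The fit of iTreg and Th2 alone, with fewer libraries behind the spread, called 4370 members, 1957 higher and 2413 lower; under every other alternative run the counts stayed within 1.5 times the main ones. Leaving out 1 library at a time gave 5747 to 6846 called members. With no replicate block 6461 members were called, all of them also called with it and in the same direction. Same-numbered libraries share a table and a like depth (1 to 1.14 for replicate 1 and 0.801 to 0.886 for replicate 2, relative to iTreg replicate 1), but the labels name no shared animal, culture or day: deviations from the medium means correlated at 0.077 between iTreg and Th2 and at -0.13 to 0.36 over 21 pairs of media. The median change over all tested genes was -0.07 as deposited, -0.03 after quantile normalization and -0.02 after median scaling, and 39.8% to 47.0% of calls were higher in iTreg. Some genes that were not called changed sign. Leaving out 1 library at a time, the log2 change ran from -0.116 to 0.487 for Entpd1, from -0.00639 to 0.352 for Ifng, from -0.227 to 0.153 for Il17a, from -0.568 to 1.02 for Socs2, from -0.0365 to 0.0503 for Stat6 and from -0.147 to 0.133 for Tbx21. Under median scaling it was 0.0124 for Il17a and 0.0423 for Tbx21, and with the highest transcript -0.143 for Socs2; the cause was not tested. Calls of Il2rb, Mcl1, Bad, Tgfbr3 and Ccl3 were lost in some alternatives (Ccl3 to adjusted p values of 0.093 and 0.1), and Entpd1, Ifng, Il13 and Smad3 were called in some. The mitosis count fell from 17 to 11 in the fit of iTreg and Th2 alone, and the sterol count from 15 to 8. Precision at low FPKM is limited by a depth that is known only in relative terms.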

Other observations

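The families and genes here were picked after their values were seen, and none of this is a test. Of 80 genes for subunits of oxidative phosphorylation 40 (50%) were called lower in iTreg and 4 higher, beside 37.2% lower over all members, with a median log2 change of -0.28. The share of lower genes was under that of all members without iTreg replicate 1 (17 genes, 21.2% beside 28.8%), without Th2 replicate 1 (17 genes, 21.2% beside 28.5%) and in the fit of iTreg and Th2 alone (6 genes, 7.5% beside 22.2%). Of 38 proteasome subunit genes 25 (65.8%) were lower and none higher (median -0.38), with 10, 10 and 7 lower (26.3%, 26.3% and 18.4%) in the same 3 alternatives, again under the shares of all members. Cytosolic ribosomal protein genes did not follow the ribosome assembly genes: of 81, 23 were higher in iTreg, 5 lower and the others not called (median 0.12). Their direction depended on the setting, with 16 higher and 12 lower after quantile normalization, 48 and 5 after median scaling, and 5 and 5 without iTreg replicate 2; many have near-identical pseudogenes.

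Some genes stood far above all 6 other media. In iTreg these included Atp1b1, a sodium pump chain, at 82.6 and 103 FPKM in iTreg and at a mean of at most 11.5 FPKM elsewhere. Cd40, best known from B cells and dendritic cells, was at 9.30 and 12.5 FPKM in iTreg and at a mean of at most 0.236 FPKM elsewhere, while the 8 B cell markers listed summed to 2.08 and 1.91 FPKM in iTreg and 1.31 and 1.79 FPKM in Th2. Among these Cd79a, a chain of the B cell receptor, was at 1.16 and 1.02 FPKM in iTreg and 0.281 and 0.248 FPKM in Th2 (limma adjusted p = 0.00034), and the part of B cells in the Cd40 level was not tested. Cx3cr1, the fractalkine receptor gene, was at 9.55 and 6.26 FPKM against at most 0.257 FPKM. In Th2, Adamtsl3, a gene of the extracellular matrix, was at 7.53 and 14.6 FPKM and at a mean of at most 0.00895 FPKM in any other medium. Gask1a was at 13.2 and 16.8 FPKM against at most 0.175 FPKM, and F2rl2, a member of the protease-activated receptor family, at 13.2 and 16.3 FPKM against at most 0.621 FPKM.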
